A study of Mus musculus with 7 samples.

Results

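The genes described here are the neutrophil-attracting chemokines *Cxcl1*, *Cxcl2*, *Cxcl3* and *Cxcl5*, the monocyte chemokine *Ccl2*, the receptors *Cxcr2* and *Csf3r*, and the alarmins *S100a8* and *S100a9*. They are 9 of the 32095 gene or transcript names on the array, and they were taken by name as genes of neutrophil recruitment. They and the gene lists further below were chosen with earlier results of these data known. Their counts of calls are therefore not independent of those results. Each of the 9 genes has 1 probe, which is spotted 10 times for *Ccl2* and 1 time for the other genes. Of the 9 genes, 7 were measured well enough to be tested, whereas the probes of *Cxcl2* and *Cxcl3* were not well above background in either channel on any array.

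Neutrophils leave the blood toward a gradient of CXC chemokines that carry a glutamate-leucine-arginine motif, which epithelium, endothelium and macrophages release upon interleukin-1, tumor necrosis factor or microbial signals through NF-kB. *Cxcr2* encodes the neutrophil receptor of these ligands, and *Csf3r* encodes the receptor of G-CSF, the cytokine that drives neutrophil production. *S100a8* and *S100a9* encode the subunits of calprotectin, which is stored in the cytosol of neutrophils and monocytes and is also made by activated keratinocytes, and which is known to act as a danger signal once it is released.

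The arrays compared nasal tissue (septum and turbinate) of BALB/c mice that inhaled diesel exhaust particles (DEP) with that of control mice, which the study's methods give as treated with saline. The mice are given as females aged 6 weeks. Tissue was collected after the exposure, so age at collection may differ between the exposure times and cannot then be told apart from them. DEP were given at 100 µg/m3 from an ultrasonic nebulizer for 1 hour per day on 5 days per week, for 4 weeks (4 arrays) or 8 weeks (3 arrays). The labels count 32 mice in the study and call the arrays of 1 exposure time biological replicates. Neither the labels nor the methods say how many mice gave the RNA of 1 array, or whether 1 control RNA served several arrays, so the spread given here is that between arrays.

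Each array held DEP RNA in Cy5 and control RNA in Cy3, and no array had the dyes swapped, so a dye effect particular to a probe and an effect of DEP cannot be told apart within 1 exposure time. Each exposure time was hybridized on a slide of its own, so that the effect of time cannot be told apart from that of the slide. Per array, 18475 to 25062 of 39429 probes exceeded the background clearly in DEP and 16818 to 26920 did so in control, with 0 saturated spots. The log2 ratios of 2 arrays correlated across probes with an r of 0.44 to 0.49 at 4 weeks and of 0.71 to 0.88 at 8 weeks. Ratios are given as log2 of DEP over control, so that -1 is a 2-fold lower level in DEP, and the net signal is the median intensity of a spot minus that of its background. Adjusted p-values are those of limma with the Benjamini-Hochberg adjustment over all 25123 probes tested.

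Of the 9 genes, 7 have an entry among the RefSeq promoters of GRCm38.p6. These promoters hold 250 bases before and 50 bases after the start site of a gene of the reference strain. The 3 clustered chemokine promoters are shown because they share a binding motif of NF-kB. They are at chr5:90890995-90891294 (*Cxcl1*), chr5:90903649-90903948 (*Cxcl2*) and chr5:90785851-90786150 (*Cxcl3*), each on the + strand and read 5′ to 3′, with capitals wherever the letters GGG, 2 bases of any kind and the letters TTTCC follow each other on either strand.
Cxcl1: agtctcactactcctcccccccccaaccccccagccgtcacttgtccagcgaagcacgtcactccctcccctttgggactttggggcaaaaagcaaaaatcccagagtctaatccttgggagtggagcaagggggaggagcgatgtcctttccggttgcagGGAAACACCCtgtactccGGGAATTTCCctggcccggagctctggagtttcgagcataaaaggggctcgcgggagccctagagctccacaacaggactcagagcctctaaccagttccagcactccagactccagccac
Cxcl2: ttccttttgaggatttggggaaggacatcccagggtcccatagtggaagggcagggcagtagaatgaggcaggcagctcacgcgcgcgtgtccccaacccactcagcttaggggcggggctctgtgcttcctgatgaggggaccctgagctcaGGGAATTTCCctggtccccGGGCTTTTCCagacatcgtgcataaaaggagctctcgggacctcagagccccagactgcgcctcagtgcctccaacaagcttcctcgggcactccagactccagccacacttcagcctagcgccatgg
Cxcl3: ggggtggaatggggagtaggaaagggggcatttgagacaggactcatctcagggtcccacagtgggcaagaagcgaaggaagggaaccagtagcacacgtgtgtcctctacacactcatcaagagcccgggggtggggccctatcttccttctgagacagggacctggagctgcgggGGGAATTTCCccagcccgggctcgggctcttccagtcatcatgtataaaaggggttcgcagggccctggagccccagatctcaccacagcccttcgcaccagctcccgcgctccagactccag
The motif was found 2 times in *Cxcl1*, at 89 bases before the start on the - strand and at 71 bases before it on the + strand. *Cxcl2* held it 2 times, at 97 and 78 bases before the start, and *Cxcl3* 1 time, at 73 bases before the start. Among 32851 promoters of this length, 1.63% held it, and the promoters of *Cxcr2*, *Csf3r*, *S100a8* and *S100a9* did not. The looser form of GGG, 5 bases of any kind and CC, which also matches every such site, occurred in 50.8% of promoters, among them those of *Cxcr2* and *Csf3r* but not of *S100a8* or *S100a9*. In the order of protein-coding genes, *Cxcl1* lies between *Cxcl15* and *Cxcl2*, *Cxcl3* lies between *Pf4* and *Cxcl15*, and *S100a8* is next to *S100a9*.

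After 4 weeks, *Cxcl1*, *Cxcl5*, *Ccl2*, *Cxcr2*, *S100a8* and *S100a9* were lower with DEP exposure, and *Csf3r* was higher. All 7 tested genes thus passed an adjusted p of 0.05, which 38.3% of the 20635 names tested passed (16.7% lower and 21.5% higher). At the thresholds of the study's methods, an unadjusted p of 0.01 with a 2-fold change, the genes called were *Cxcl1*, *Cxcl5*, *Csf3r* and *S100a9*, against 1.31% of all names. With the software's processed signals 6 of the 7 genes passed these thresholds at 4 weeks, as *Ccl2* (log2 ratio -1.55) and *Cxcr2* (log2 ratio -1.76) then did too. After 8 weeks, *S100a8* and *S100a9* were still lower and *Csf3r* still higher, and *Ccl2* was slightly higher in DEP, so that 4 genes were called where 37.5% of all names were (17.1% lower and 20.4% higher). *Csf3r*, *S100a8* and *S100a9* also passed the p and 2-fold thresholds at 8 weeks, which 2.94% of names did. *Csf3r* was under 2-fold there with median centring (log2 ratio 0.87), with the processed signals (log2 ratio 0.94) and without 8 weeks replicate 1, and then did not pass these thresholds. The study itself selected *Cxcl1*, *Ccl2*, *Csf3r* and *S100a9* on the 4-week arrays, so their calls there are not independent of that choice.

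**Figure D1:**
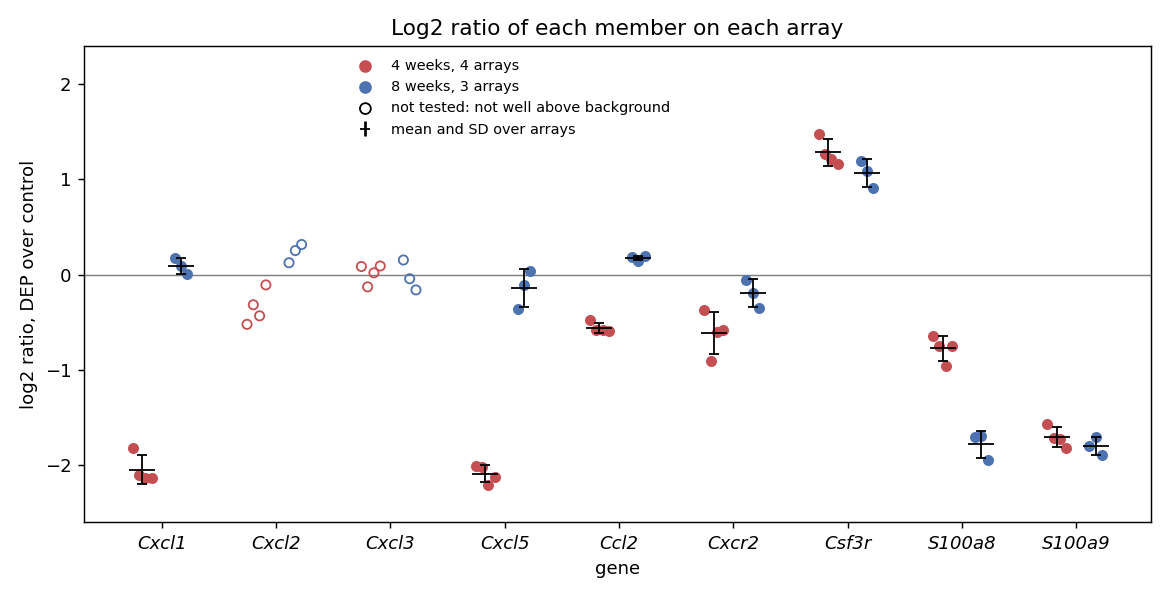
Log2 ratio of DEP over control (y axis) for each of the 9 genes (x axis) on each array, with 4-week arrays in red and 8-week arrays in blue and a bar at the mean with its SD. *Cxcl1* and *Cxcl5* lie near -2 at 4 weeks and near 0 at 8 weeks, the arrays of both times overlap for *S100a9* and *Csf3r*, and *S100a8* lies lower at 8 weeks; open circles are *Cxcl2* and *Cxcl3*, which were not tested.

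*Cxcl1* encodes the ligand also called KC. Its log2 ratio on the 4-week arrays was -1.82, -2.11, -2.14 and -2.13 in replicates 1 to 4, and on the 8-week arrays it was 0.18, 0.09 and 0.01 in replicates 1 to 3. Every 4-week array thus lay far below every 8-week array. In net signal, the control channel read 317 to 360 at 4 weeks and 50.5 to 54 at 8 weeks, while the DEP channel read 13 to 32 and 30 to 50.5. The control channel was well above background on all arrays, and the DEP channel was so on 3 of 4 arrays at 4 weeks and 3 of 3 at 8 weeks. *Cxcl1* was 4.14-fold lower in DEP at 4 weeks (-2.05, SE 0.065, SD 0.15, n = 4, limma adjusted p = 1.9e-06). At 8 weeks its ratio of 0.09 did not pass the test (95% interval -0.085 to 0.26, n = 3, limma adjusted p = 0.40). The size of the 4-week ratio depended on how the background was treated, and it passed the test in both alternatives given here. The mean was -3.61 with the software's processed signals. It was -1.59 when outlying background spots entered the background fit. In that fit replicate 2 alone moved far, to -0.31, while replicates 1, 3 and 4 were -1.80, -2.13 and -2.12.

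*Cxcl5* encodes the chemokine LIX, another ligand of *Cxcr2*. Its log2 ratios were -2.01, -2.02, -2.20 and -2.12 at 4 weeks and -0.36, -0.11 and 0.03 at 8 weeks. Here too the exposure times did not overlap, and at 8 weeks the arrays lay on both sides of 0. The net signal of the control channel was 1260.5 to 1476 at 4 weeks and 419 to 449 at 8 weeks, and that of the DEP channel 195 to 305 and 228.5 to 295.5. Unlike *Cxcl1*, *Cxcl5* was well above background in both channels on every array. *Cxcl5* was 4.26-fold lower in DEP at 4 weeks (-2.09, SE 0.069, SD 0.091, n = 4, limma adjusted p = 2.3e-06). The 8-week value of -0.14 did not pass (95% interval -0.33 to 0.042, n = 3, limma adjusted p = 0.20), although with median centring in place of loess it was -0.41 with an adjusted p of 0.0051.

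*Cxcl2* encodes MIP-2 and *Cxcl3* a further ligand of the same receptor. The net signal of *Cxcl2* was -0.5 to 11 in the DEP channel and 22 to 36.5 in the control channel at 4 weeks, and 9 to 15 and 8 to 10 at 8 weeks. *Cxcl3* read 2 to 11 in DEP and -1.5 to 12.5 in control at 4 weeks, and -1.5 to 4.5 and 1.5 to 14 at 8 weeks. Neither gene was tested at these signals, and no fold is given. With no filter, 8 of the 9 genes were called at 4 weeks, so *Cxcl2* or *Cxcl3* was among them. The 4-week log2 ratios of *Cxcl2* were -0.52, -0.32, -0.43 and -0.11, and those of *Cxcl3* were 0.08, -0.13, 0.02 and 0.09.

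*Ccl2* encodes MCP-1, which draws monocytes by way of *Ccr2*. Its log2 ratios were -0.48, -0.59, -0.58 and -0.59 at 4 weeks and 0.18, 0.15 and 0.19 at 8 weeks. All 4-week arrays were below 0 and all 8-week arrays above it. The median net signal over its 8 to 10 usable spots per array was 63 to 68 in control and 16 to 23.5 in DEP at 4 weeks, and 22.75 to 34.75 in control and 23 to 29.25 in DEP at 8 weeks. *Ccl2* was 1.47-fold lower in DEP at 4 weeks (SE 0.042 on the log2 scale, SD 0.052, n = 4, limma adjusted p = 7.3e-05). At 8 weeks it was 1.13-fold higher (log2 ratio 0.17, n = 3, limma adjusted p = 0.027), a call that was made in 10 of 18 settings and was lost when any one 8-week array or replicate 2 of 4 weeks was left out. With the processed signals its log2 ratios were -1.55 and 0.82. *Ccl2* was well above background in control on 2 of 4 arrays at 4 weeks and 1 of 3 at 8 weeks.

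*Cxcr2*, the receptor of the CXC ligands above, was near background. Its log2 ratios were -0.37, -0.91, -0.60 and -0.58 at 4 weeks and -0.05, -0.19 and -0.35 at 8 weeks. The ranges of the exposure times ran close together, without overlap, the lowest 8-week array just above the highest 4-week array. Its net signal was 12.5 to 30 in DEP and 66 to 87 in control at 4 weeks, and -4.5 to 13 and 18 to 22.5 at 8 weeks. *Cxcr2* was 1.53-fold lower in DEP at 4 weeks (SE 0.087, SD 0.22 on the log2 scale, n = 4, limma adjusted p = 0.0015). At 8 weeks the DEP channel was not well above background on any array, and the ratio of -0.20 did not pass (limma adjusted p = 0.17). The 4-week value was -1.76 with the processed signals, and it was lost with the methods' t-test paired within arrays (adjusted p = 0.051).

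*Csf3r* was the single member that was higher in DEP at both exposure times. Its log2 ratios were 1.48, 1.27, 1.21 and 1.16 at 4 weeks and 1.19, 1.09 and 0.91 at 8 weeks. All arrays were above 0 and the exposure times overlapped. In net signal, DEP read 7757 to 11493.5 and control 4247 to 5104 at 4 weeks, and DEP 8001 to 11719 and control 5763.5 to 6376 at 8 weeks. *Csf3r* rose 2.43-fold at 4 weeks (1.28, SE 0.069, SD 0.14, n = 4, limma adjusted p = 1.4e-05) and 2.09-fold at 8 weeks (1.06, n = 3, limma adjusted p = 5.0e-05). The 8-week call was lost with the methods' t-test paired within arrays (adjusted p = 0.071).

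*S100a8* fell more after 8 weeks than after 4. Its log2 ratios were -0.65, -0.75, -0.96 and -0.75 at 4 weeks and -1.70, -1.69 and -1.95 at 8 weeks. No 4-week array reached as low as any 8-week array. Net signals were 1867 to 2653 in DEP and 4226.5 to 4770 in control at 4 weeks, and 494 to 709 and 3155 to 3385 at 8 weeks. *S100a8* was 1.71-fold lower in DEP at 4 weeks (-0.78, SE 0.067, SD 0.13, n = 4, limma adjusted p = 0.00014) and 3.44-fold lower at 8 weeks (-1.78, n = 3, limma adjusted p = 4.4e-06). With the methods' t-test paired within arrays the 8-week call was lost (adjusted p = 0.056).

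*S100a9*, the partner of *S100a8* in calprotectin, was lower by about the same ratio at both exposure times. Its log2 ratios were -1.56, -1.72, -1.73 and -1.83 at 4 weeks and -1.80, -1.71 and -1.89 at 8 weeks, which overlap. The DEP channel read 2540 to 3374.5 and the control channel 9827 to 11325 at 4 weeks, and 1367.5 to 1739.5 and 7385.5 to 7794.5 at 8 weeks. The decrease was 3.27-fold at 4 weeks (-1.71, SE 0.056, SD 0.11, n = 4, limma adjusted p = 2.3e-06) and 3.48-fold at 8 weeks (-1.80, n = 3, limma adjusted p = 2.4e-06). Both subunits were thus lower at both times. In these bulk samples fewer cells of a type and less RNA per cell cannot be told apart.

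The difference between the exposure times, 8 weeks minus 4 weeks in log2 ratio, passed the test for 5 of the 7 genes, against 31.1% of all names tested (16.1% lower and 15% higher). It was 2.14 for *Cxcl1* (limma adjusted p = 1.4e-05), 1.95 for *Cxcl5* (3.0e-05) and 0.73 for *Ccl2* (0.00024). The fitted difference of *Cxcr2* was 0.42 (limma adjusted p = 0.048), but its DEP channel was not well above background on any 8-week array, so that this value is no measured size, and the call was made in 5 of 16 settings. *S100a8* differed the other way, by -1.01 (limma adjusted p = 0.00045). The difference of *Csf3r* was -0.22 (95% interval -0.46 to 0.026, limma adjusted p = 0.16) and that of *S100a9* was -0.09 (-0.29 to 0.11, limma adjusted p = 0.45), and neither passed. With the processed signals *Csf3r* did pass, at -0.28 (limma adjusted p = 0.042).

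**Figure D2:**
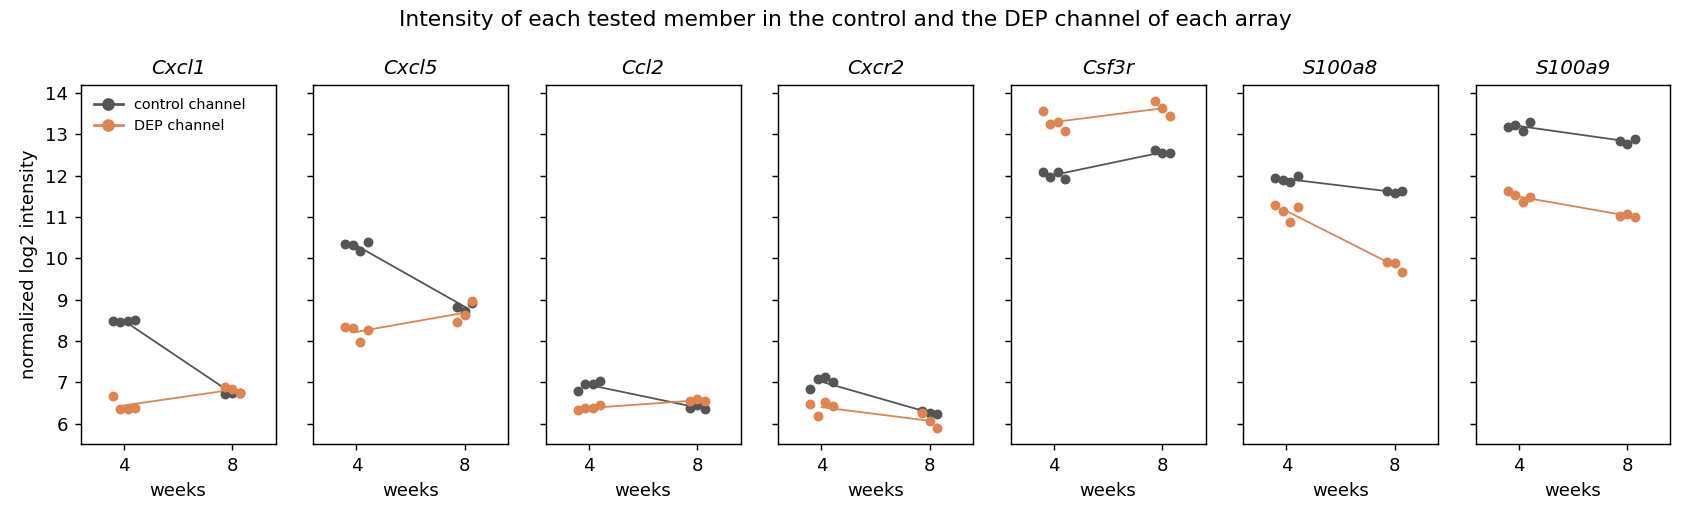
Normalized log2 intensity (y axis) of each tested gene at 4 and 8 weeks (x axis), with 1 point per array, control in grey and DEP in orange, and lines that join the means. For *Cxcl1* and *Cxcl5* the grey line falls to the level of the orange line, and for *S100a8* the orange line falls more than the grey.

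The 2 channels were then read separately, with both normalized over the 7 arrays, to see in which RNA each gene differed between the exposure times. In the control channel all 7 genes were called, where 30.7% of all names were, and in the DEP channel also all 7, where 43.6% of names were. The control level of *Cxcl1* was 3.39-fold lower at 8 weeks than at 4 weeks (log2 difference -1.76, limma adjusted p = 5.6e-09), with a mean log2 level of 8.49 ± 0.022 (SD, n = 4) against 6.73 ± 0.016 (SD, n = 3). The DEP level of *Cxcl1* was 0.38 higher on the log2 scale at 8 weeks (limma adjusted p = 0.0022). *Cxcl5* likewise was 2.79-fold lower in control at 8 weeks (-1.48, limma adjusted p = 6.3e-07) and 0.46 higher in DEP (limma adjusted p = 0.0046). With the background fitted on all spots, the DEP-channel differences were 0.12 for *Cxcl1* and 0.30 for *Cxcl5*, and neither was called. In both ligands the control channel thus differed more between the exposure times than the DEP channel.

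*Ccl2* followed the same order, with a control level 0.55 lower (log2 difference -0.55, limma adjusted p = 1.7e-05) and a DEP level 0.19 higher at 8 weeks (limma adjusted p = 0.025). The DEP-channel call of *Ccl2* was made in 3 of 13 settings, with values down to 0.11. *Cxcr2* was lower at 8 weeks in control (-0.75, limma adjusted p = 0.00021), where it was well above background on 2 of 4 arrays at 4 weeks and 1 of 3 at 8 weeks. Its DEP channel was so on 1 of 4 and 0 of 3 arrays, and no size is given for it. *S100a8* differed mainly in the DEP channel, where it was 2.50-fold lower at 8 weeks (-1.32, limma adjusted p = 1.9e-07), against -0.32 in control (limma adjusted p = 0.022). *S100a9* was lower at 8 weeks by similar amounts in DEP (-0.46, limma adjusted p = 0.00027) and control (-0.37, limma adjusted p = 0.0022). *Csf3r* was higher at 8 weeks in control (0.55, limma adjusted p = 0.0015) and DEP (0.33, limma adjusted p = 0.022). The DEP-channel call of *Csf3r* was lost without replicate 2 or 4 of 4 weeks and without replicate 1 or 2 of 8 weeks. Over the settings its DEP-channel value went down to 0.087. The number of DEP-channel calls ranged from 3 to 7 over the settings, and was 4 without 8 weeks replicate 2. These channel differences are also differences between 2 slides.

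The genes whose log2 ratios over the 7 arrays lay nearest to those of *Cxcl1*, among 15682 gene symbols, were *Il6*, *Cxcl5*, *Cebpd*, *Idi2* and *Spon2*, with root mean square differences of 0.195, 0.230, 0.399, 0.479 and 0.494. *Il6* is an inflammatory cytokine and *Cebpd* a transcription factor of the acute-phase response. *Il6* was not well above background in either channel at 8 weeks. The nearest to *Csf3r* were *Hccs*, *Med16*, *Slc10a1*, *Gm6994* and *Ttc38*, with differences of 0.0758 to 0.108, and their mean log2 ratios were 1.20 to 1.31 at 4 weeks and 0.96 to 1.04 at 8 weeks. No neutrophil gene of the list below was among them.

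Other chemokines and receptors of myeloid cells were mostly lower at 4 weeks: of 21 genes on the list, 12 were tested, and 8 of these were lower and 2 higher, with a median log2 ratio of -0.25 where the median of all names was 0.00. *Ppbp*, a platelet chemokine that neighbours *Cxcl5*, fell by 0.78 on the log2 scale (SD 0.11, limma adjusted p = 4.4e-05), and *Ccl12*, a ligand of *Ccr2*, by 0.48. *Ccl9* rose by 0.25. At 8 weeks 3 were lower and 2 higher (median -0.05), with *Ppbp* at -1.46 (SD 0.033, limma adjusted p = 3.7e-06) and *Pf4*, another platelet chemokine, at -0.66. The receptors *Cxcr1*, *Ccr1* and *Ccr2* were among the genes not tested.

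Among cytokines and receptors that induce these chemokines, 14 of 20 were tested, and 7 were lower and 0 higher at 4 weeks (median -0.11). *Il6* fell by 2.09 on the log2 scale (SD 0.21, limma adjusted p = 1.0e-05) and *Il1b* by 0.90 (SD 0.040, limma adjusted p = 1.6e-05). The study had also selected both, and reported qRT-PCR of the same tissue in the same direction. Here *Il1b*, at 1.87-fold, did not reach the 2-fold threshold of the study's methods. *Tnfrsf1a*, the main receptor of tumor necrosis factor, fell by 0.47, and *Il1r1*, the interleukin-1 receptor, by 0.39. At 8 weeks only *Il1r1* was called, at 0.32 (median of the list 0.06). *Il6* was not well above background in either channel at that time, so no ratio of it was measured there. *Csf3*, which encodes the ligand of *Csf3r*, was not well above background on any array.

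NF-kB target and feedback genes showed the same order, with 8 of 12 tested genes lower and 0 higher at 4 weeks (median -0.40). The largest decrease on the list at 4 weeks was that of *Bcl3*, a nuclear IkB protein, at -1.22 (SD 0.11, limma adjusted p = 6.7e-06), followed by *Ier3* at -0.62 and *Tnfaip3*, which encodes the inhibitor A20, at -0.53. *Nfkbia*, the gene of IkB alpha, and *Relb* were lower at 4 weeks (-0.43 and -0.46) and higher at 8 weeks (0.53 and 0.53). *Tnip1*, which encodes a partner of A20, was -0.38 at 4 weeks and -1.25 at 8 weeks, where the list held 2 lower and 2 higher genes (median 0.02).

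Pattern receptors and partners of the alarmins had 7 of 8 tested genes lower and 0 higher at 4 weeks (median -0.43). *Cd14*, the co-receptor of lipopolysaccharide, fell by 1.39 (SD 0.074, limma adjusted p = 6.0e-06), *Tlr2* by 0.50 and *Ly96*, the partner of TLR4, by 0.47. *Tlr4*, a receptor of the calprotectin subunits, fell by 0.29, and *Ager*, the gene of the receptor RAGE, was not well above background on any array. At 8 weeks the list had 2 lower and 2 higher genes (median 0.05), with *Cd14* at 0.14 and not called.

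The other S100 genes moved in both directions. Of 13 tested, 4 were lower and 4 higher at 4 weeks (median -0.05), and 2 were lower and 4 higher at 8 weeks (median 0.11). *S100a10* and *S100a4* were lower at 4 weeks (-0.64 and -0.40) and higher at 8 weeks (0.54 and 0.34). *S100a6*, which was lower at both (-0.35 and -0.49), and *S100z*, which was higher at both (0.66 and 0.51), kept their direction.

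**Figure D3:**
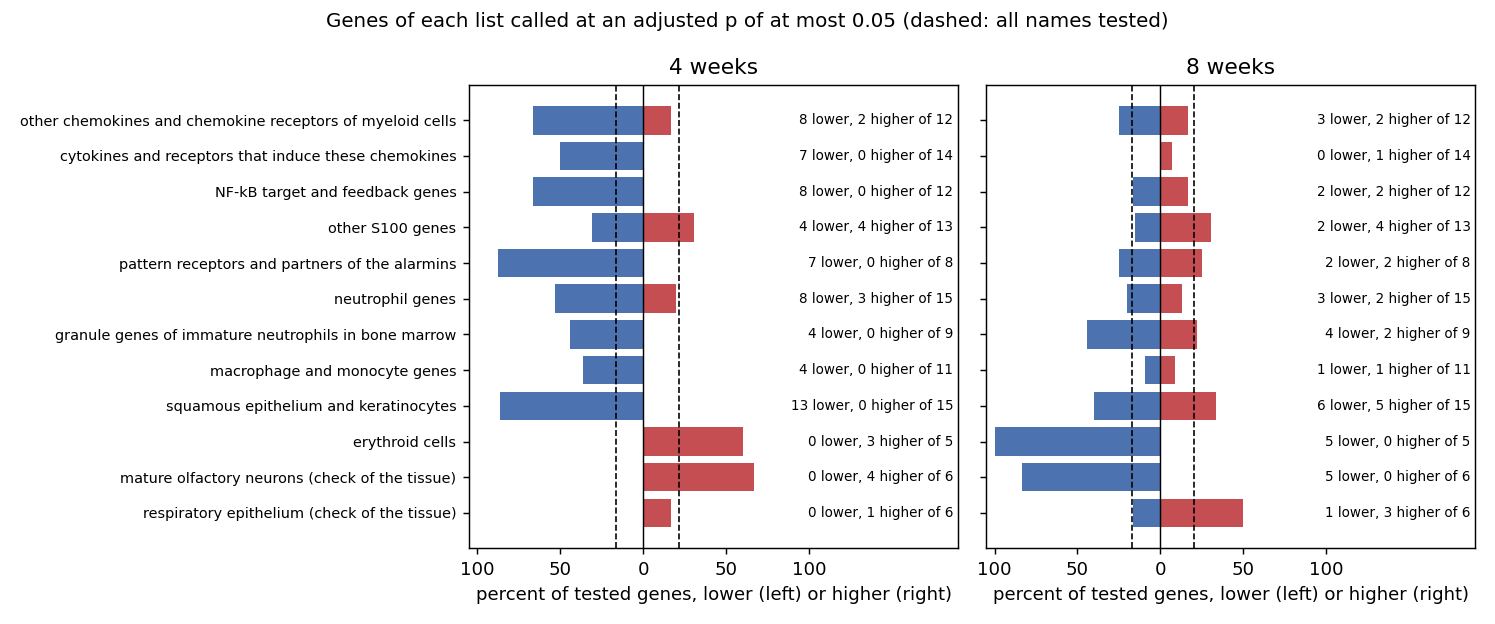
Percent of tested genes of each list (rows) called lower (blue, to the left) or higher (red, to the right) in DEP at an adjusted p of 0.05, at 4 and 8 weeks, with the numbers of genes at the right. Dashed lines are the shares of all names tested (16.7% and 21.5% at 4 weeks, 17.1% and 20.4% at 8 weeks); the first 5 lists, those of pathways, reach left of the line at 4 weeks and hold 0% to 25% lower genes at 8 weeks.

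Genes known from neutrophils did not move together. At 4 weeks, 15 of the 19 on the array were tested, 8 were lower and 3 higher (median -0.20), and at 8 weeks 3 were lower and 2 higher (median -0.03). These are 53.3% lower and 20% higher at 4 weeks, against 16.7% and 21.5% of all names. At 8 weeks they are 20% and 13.3%, against 17.1% and 20.4%. Only the lower share at 4 weeks thus lay well above that of all names. Lower at both times were *Retnlg*, a secreted protein of mature neutrophils (-1.20, SD 0.11, and -0.76, SD 0.017), the gelatinase gene *Mmp9* (-0.39 and -0.37) and *Wfdc21* (-0.42 and -0.45). Higher at both, with *Csf3r*, were *Itgam*, which encodes CD11b (0.77 and 0.67), and *Trem1*, an activating receptor (0.56 and 0.59). For *Clec4d* the 4-week decrease is given as a bound on the mean, at least 2.03-fold, since DEP was not well above background. Its arrays spread widely (log2 ratio -1.10, SD 0.66), so the bound does not hold for each array. *Mmp8*, *Fpr1*, *Fpr2* and *Clec4e* were not tested.

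The summed level of the 15 neutrophil genes ran against their median ratio: it was 11577 to 14205 in DEP and 8784 to 8984 in control at 4 weeks, and 15005 to 19139.6 and 11404 to 12311 at 8 weeks. Such a sum gives most weight to the brightest genes, so it is no measure of the amount of neutrophil RNA. The genes called higher at 4 weeks were *Itgam*, *Trem1* and *Hdc*, against 8 lower. Between 2 and 12 of the list's genes were lower at 4 weeks over the settings, and the median turned to 0.19 when only the 5 genes with clear signal in each channel of every array were kept. Of the granule genes made by immature neutrophils in bone marrow, 4 of 9 were lower and 0 higher at 4 weeks and 4 lower and 2 higher at 8 weeks. *Camp*, which encodes cathelicidin, was -0.93 and -1.34 and *Mpo*, the gene of myeloperoxidase, -0.74 and -1.26. *Ngp* was -0.06 and not called at 4 weeks, and -0.88 at 8 weeks. *Chil3* was lower at 4 weeks (-0.51) and higher at 8 weeks (1.03). Of macrophage and monocyte genes, 4 of 11 were lower at 4 weeks, and 1 was lower and 1 higher at 8 weeks.

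**Figure D4:**
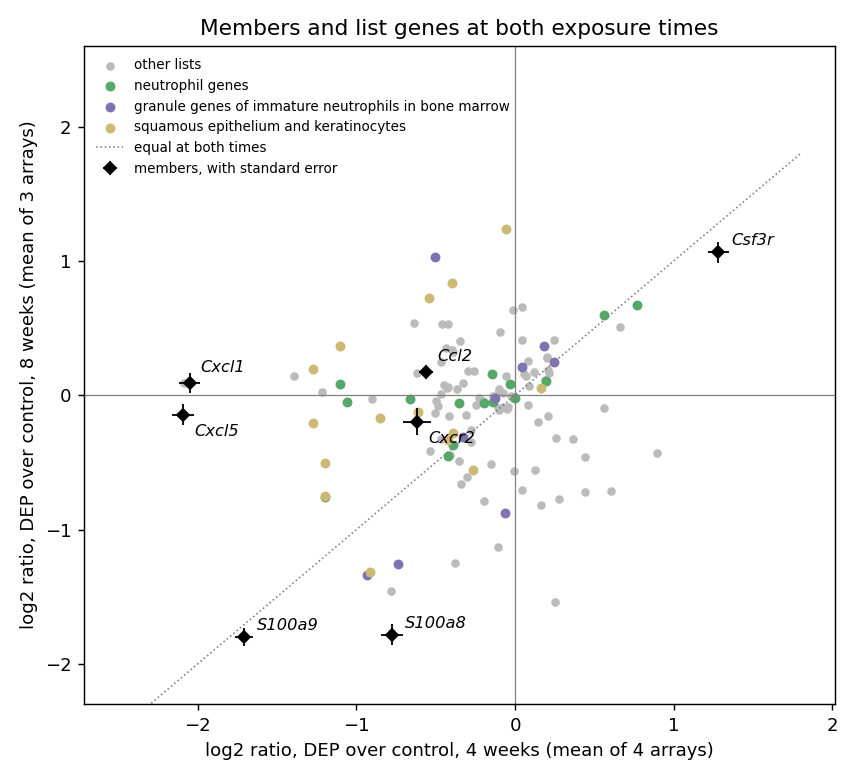
Mean log2 ratio of DEP over control at 4 weeks (x axis) and at 8 weeks (y axis) for the 7 tested members (black, with SE) and the tested genes of the lists (coloured), with values near background included. *S100a9* and *Csf3r* lie close to the dotted line of equal ratios, and *Cxcl1* and *Cxcl5* lie near -2 on the x axis and near 0 on the y axis.

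Genes of squamous epithelium and keratinocytes, cells that also make calprotectin, moved beside the alarmins at 4 weeks. Of 15 tested, 13 were lower and 0 higher (median -0.61), and the list's summed level was 24255 to 26951 in DEP against 32217 to 34510.3 in control. *Sprr1b* fell by 1.28 (SD 0.051), *Krt13* by 1.27 (SD 0.15) and the stress keratin *Krt16* by 1.20 (SD 0.089). At 8 weeks, when *S100a8* was lowest, 6 were lower and 5 higher (median -0.17), with sums of 28343 to 33881 in DEP and 30499.7 to 32499.7 in control. *Krt6b*, *Krt16* and *Krt4* were lower at that time (-1.32, -0.75 and -0.51), while *Krt14* and *Krt10* were higher (0.72 and 0.84). The part of squamous tissue in the alarmin ratios was not tested.

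Markers of the tissue were measured, with 6 of 6 genes tested for olfactory neurons and 6 of 6 for respiratory epithelium. Respiratory epithelium had 0 lower and 1 higher genes at 4 weeks and 1 lower and 3 higher at 8 weeks. Mature olfactory neuron genes were higher in DEP at 4 weeks (4 of 6) and lower at 8 weeks (5 of 6), with *Omp*, the olfactory marker protein, at 0.89 and -0.43. Erythroid genes were higher at 4 weeks (3 of 5) and lower at 8 weeks (5 of 5), with a summed level of 7622 to 8524 in DEP and 7024 to 7992 in control at 4 weeks and of 11382 to 12500.4 and 18502 to 19616 at 8 weeks. Neuron and blood genes thus also moved with exposure time, and their part in the values of *S100a8* and the chemokines was not tested. The split of all calls depends on the scaling: of the 7893 names called at 4 weeks 56.3% were higher, against 42.1% with median centring and 68% with processed signals, and at 8 weeks 54.4% were higher against 26.9% with median centring, which set the median of all names at -0.11. *Csf3r* stayed higher and *S100a8* and *S100a9* lower under each of these scalings.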

How the data were processed

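Nasal RNA of DEP-exposed (Cy5) and control (Cy3) mice was hybridized to Agilent mouse 4x44K V2 arrays. The authors deposited 1 Feature Extraction 10.10.1.1 file per array, whose median signals and median backgrounds are intensity values with no correction. The deposited processed signals are intensity after the software's own background subtraction and dye normalization, and the deposited log10 ratio of these was not used. The GeneSpring normalization was not repeated. Array signals are intensities and not counts. Precision is limited by how many arrays there were and, for dim spots, by the low signal.

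In R 4.3.3 with limma 3.58.1, backgrounds were corrected by normexp (offset 50), fitted without spots that the software marked as background outliers, and ratios were normalized by loess within arrays. Spots that were not uniform or were population outliers were left out, and spots of a probe were averaged. A probe was tested when well above background, on at least 50% of its spots, in either channel on at least 3 of 7 arrays (25123 probes, 20635 names). One linear model with a mean for each exposure time was fitted by lmFit and eBayes. A gene's value is that of its brightest tested probe. Channels were compared by lmscFit after Aquantile normalization, with an intraspot correlation of 0.421, on 24814 probes. A summed level adds the normalized intensities of a list's tested genes. Where 1 channel was not well above background, the bound uses the lowest such signal per array.

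Of all probes, 28330 were named through RefSeq. The named genes are the members, the listed genes and the 5 nearest to *Cxcl1* and to *Csf3r*. The members and lists were chosen with earlier results of these data known. The steps were tested on simulated arrays. Alternatives covered background, normalization, filter, probe choice, test, replicate block and each array left out; keeping population outliers was added after seeing the data. Replicate numbers did not pair the arrays: the deviations of same-numbered arrays correlated with an r of -0.0067, -0.0077 and 0.017.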

Additional observations from a re-analysis of the deposited data

Results flagged for a closer look

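Replicate 1 of 4 weeks lay apart from the other 4-week arrays by Dixon's criterion in the log2 ratio of *Cxcl1* (-1.82), in the DEP-channel level of *Cxcl1* (log2 level 6.67) and in the log2 ratio of *Ccl2* (-0.48). These were 3 of 21 groups of 4 values, and chance alone marks about 1 in 20. The groups are not independent, since a ratio is made of its DEP and control levels, so the *Cxcl1* flags may be the same event. Without that array both genes were still called at 4 weeks.

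The ratio of DEP over control differed between 8 and 4 weeks by limma's test of the difference for *Cxcl1* (2.14), *Cxcl5* (1.95), *Ccl2* (0.73), *Cxcr2* (0.42) and *S100a8* (-1.01). The value of *Cxcr2* is a fitted one, since its DEP channel was not well above background on any 8-week array. Exposure time and slide cannot be told apart in these differences.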

How the results depend on the processing

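Counts are those of the 7 tested genes called. The strict filter, which asks for clear signal in each channel of every array, left 4 of them to test, and called 4 at 4 weeks, 2 in the difference of exposure times, 4 in the control channel and 4 in the DEP channel. The DEP-channel count fell from 7 to 4 with the background fitted on all spots, to 4 with no normalization between arrays, and to 3 in a fit of that channel alone with the replicate number as a block. At 8 weeks the methods' t-test paired within arrays called 1 gene, *S100a9*, in place of 4. *Csf3r* (adjusted p = 0.071), *S100a8* (adjusted p = 0.056) and *Ccl2* were not called by that test. With replicate numbers as a block, the difference between exposure times was called for 4 genes, and *Cxcr2* (0.43, adjusted p = 0.084) was not; the numbers do not pair the arrays. Leaving out 1 array at a time gave 7 to 7 genes at 4 weeks, 3 to 4 at 8 weeks, 4 to 5 in the difference, 6 to 7 in the control channel and 4 to 7 in the DEP channel; at the p and fold thresholds it gave 4 to 4 and 2 to 3. No called gene changed its sign under these alternatives. Over all names, the 7893 calls at 4 weeks became 5021 with the background fitted on all spots, 4314 with the methods' t-test and 4712 with its paired form. The 7744 calls at 8 weeks became 4772 with the methods' t-test, 411 with its paired form and 4514 without 8 weeks replicate 2, and the 6414 calls of the difference became 3211 with the block and 3886 without 8 weeks replicate 2. Dim signals of *Ccl2*, *Cxcr2* and, in DEP, *Cxcl1* limit the precision of their ratios. Except where stated, the cause was not tested.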
